A study of Mus musculus with 6 samples.

Results

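The genes described here encode the Polycomb repressive complexes PRC1 and PRC2, the enzymes that undo their histone marks, and Kmt2a with its partner Menin (gene Men1). The list held 33 genes, grouped by gene function and chosen with earlier results of these data known. Exactly 1 of them, Rybp, was left without a value, because both of its probe sets are annotated to a pseudogene as well, so 32 of the 18193 genes measured on the array are described. RNA was compared in LSK cells (low in lineage markers, Sca-1 positive, Kit positive), which hold the blood stem cells and multipotent progenitors, and in LK cells (low in lineage markers, Sca-1 negative, Kit positive), which hold the committed progenitors. The arrays come from a study of Musashi 2 in blood formation and leukaemia. Both populations were sorted by flow cytometry from wild-type C57BL/6 mice with no treatment named in the labels, and each population had 3 Affymetrix mouse arrays, numbered 1 to 3, hybridised with linearly amplified RNA. The labels give neither the tissue the cells were taken from nor the age of the mice, do not say whether animals were pooled, and do not say that the 3 arrays are separate animals. The p-values therefore set differences against the spread among 3 samples, some of it possibly technical.

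PRC2 trimethylates histone H3 through its catalytic subunit, Ezh1 or Ezh2, on a core that includes Eed and Suz12. PRC1 ubiquitinates histone H2A through Ring1 or Rnf2. A Pcgf protein sets which form of PRC1 is built: Bmi1 and Pcgf2 mark the canonical forms, which also carry a Cbx and a Phc protein, and Pcgf1, Pcgf3, Pcgf5 and Pcgf6 mark the variant forms. Bap1 with an Asxl protein removes the ubiquitin, Kdm6a and Kdm6b remove the methyl groups, and Kmt2a with Menin methylates histone H3 at active genes, among them the Hox genes. In blood formation Bmi1 is known for its need in stem cell self-renewal, and Kmt2a for its need in stem cells and its rearrangement in leukaemia.

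Marker genes separated the populations. Of 12 measured stem cell and multipotent progenitor markers 7 were higher in LSK and 0 lower, with the transcription factor gene Hlf at log2 intensities of 9.70 ± 0.19 in LSK and 5.57 ± 0.33 in LK (SD, n = 3 each). Erythroid markers (0 of 10 higher, 6 lower) and granulocyte-monocyte markers (0 of 9 higher, 5 lower) lay the other way, with summed linear intensities of 744.0 to 1210.7 in LSK against 4795.8 to 8723.0 in LK, and of 4931.7 to 10657.2 in LSK against 16316.8 to 31200.8 in LK. Lymphoid-primed markers gave 4 higher and 0 lower of 8. Mature blood cell markers gave 1 higher and 0 lower of 12 (4 and 0 with replicate number as a block), the 1 being C1qb, at 3.84 in LSK and 2.34 in LK. The summed linear intensities of these 12 were high in both populations, 12747.2 to 19042.1 in LSK and 9593.6 to 18239.4 in LK. Megakaryocyte markers gave 0 and 0 of 5 in limma (1 and 1 with the block, 1 and 2 at an unadjusted p under 0.05). Kit, which both gates used, did not pass the test (log2 difference 0.81, limma adjusted p = 0.124, against 0.0185 when replicate number was a block), and the gene of Sca-1 is not analysed here. A pair of measures moved with the populations across the whole array. For the array's controls on Actb and Gapdh, the log2 intensity at the 3' end minus that at the 5' end, higher where RNA is more degraded or amplification more 3' biased, was 2.32, 2.32 and 3.30 on the LSK arrays, against 3.26, 3.94 and 3.40 on the LK arrays. Of 23 measured cell cycle genes 0 were higher and 6 lower in LSK (0 and 15 with the block, 0 and 16 at an unadjusted p under 0.05). A fit with the 3' to 5' measure as a covariate is given with the results, and the part of the cell cycle genes was not tested.

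Of the 32 measured members 4 were past the threshold of a limma adjusted p of 0.05 toward LSK, where 3.84% of all 18193 genes were, and 0 toward LK, where 2.89% were. At an unadjusted p under 0.05 there were 6 higher, where 10.5% of all genes were, and 3 lower, where 11.9% were, so that the count of lower members is no more than the array-wide share gives. The 4 were Kmt2a, the histone demethylase gene Kdm6b, and the PRC1 genes Cbx6 and Pcgf5. Arrays with the same number deviated together, and with that number as a block the same 4 passed (7.02% of all genes were higher in that fit) and 2 more were lower (7.36% of all genes), namely Ezh2 and Bap1. In these sorted populations a difference in the RNA of each cell and a difference in the share of cells that express a gene cannot be told apart.

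Most members differed little. The log2 differences (LSK minus LK) ran from -1.74 for Bap1 to 1.63 for Cbx6, with 16 above 0 and 16 below. Their median was 0.022, beside -0.022 over all genes tested, and their quartiles were -0.11 and 0.27, beside -0.25 and 0.19. The SD of the differences was 0.62 over members and 0.64 over all genes. In 25 members, or 78.12%, and in 74.96% of all genes, the difference was under 0.5 in size. The 3 arrays of one population lay wholly to one side of the other's in 9 of 32 members, 5 above and 4 below, where 28.0% of all genes do so, a share close to that of the members.

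Level limited what could be seen. A mean log2 intensity under 4, near the lower end of the array, was found for 9 members (Ezh1, Pcgf1, Pcgf2, Cbx2, Cbx7, Cbx8, Phf1, Phf19 and Men1), whose differences lay between -0.15 and 0.29 and are compressed at that level. The other 23 are a larger share of the members (71.9%) than such genes are of the array (41.3%). In a fit restricted to genes of that level 4 of the 23 were higher, where 9.67% of the 7508 genes were, and 1, Bap1, was lower (adjusted p = 0.0415), where 9.63% were.

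**Figure D1:**
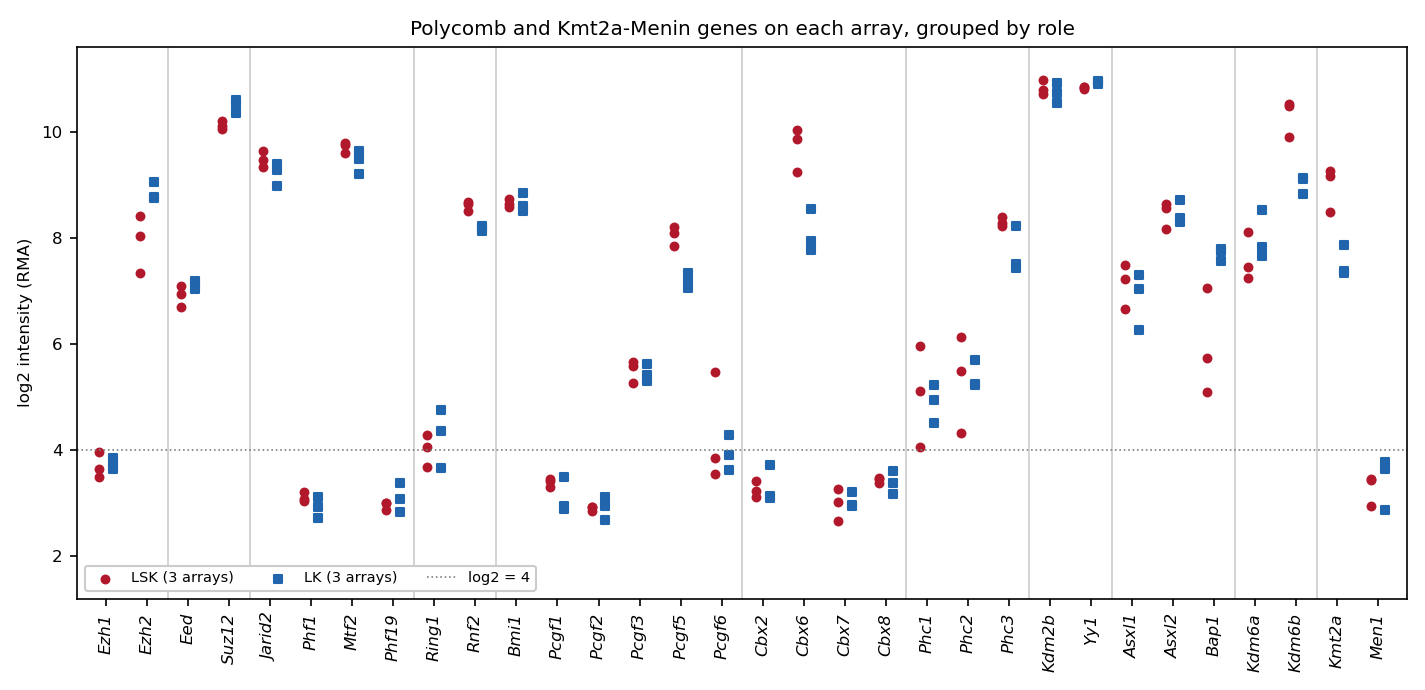
Log2 intensity (vertical axis) of the 32 members on each of the 6 arrays, with LSK as red circles left of LK as blue squares and vertical lines between roles. Kmt2a, Kdm6b, Cbx6 and Pcgf5 show 3 LSK arrays above all LK arrays, Ezh2 and Bap1 the opposite, and 9 members have a mean under the dotted line at 4.

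**Figure D2:**
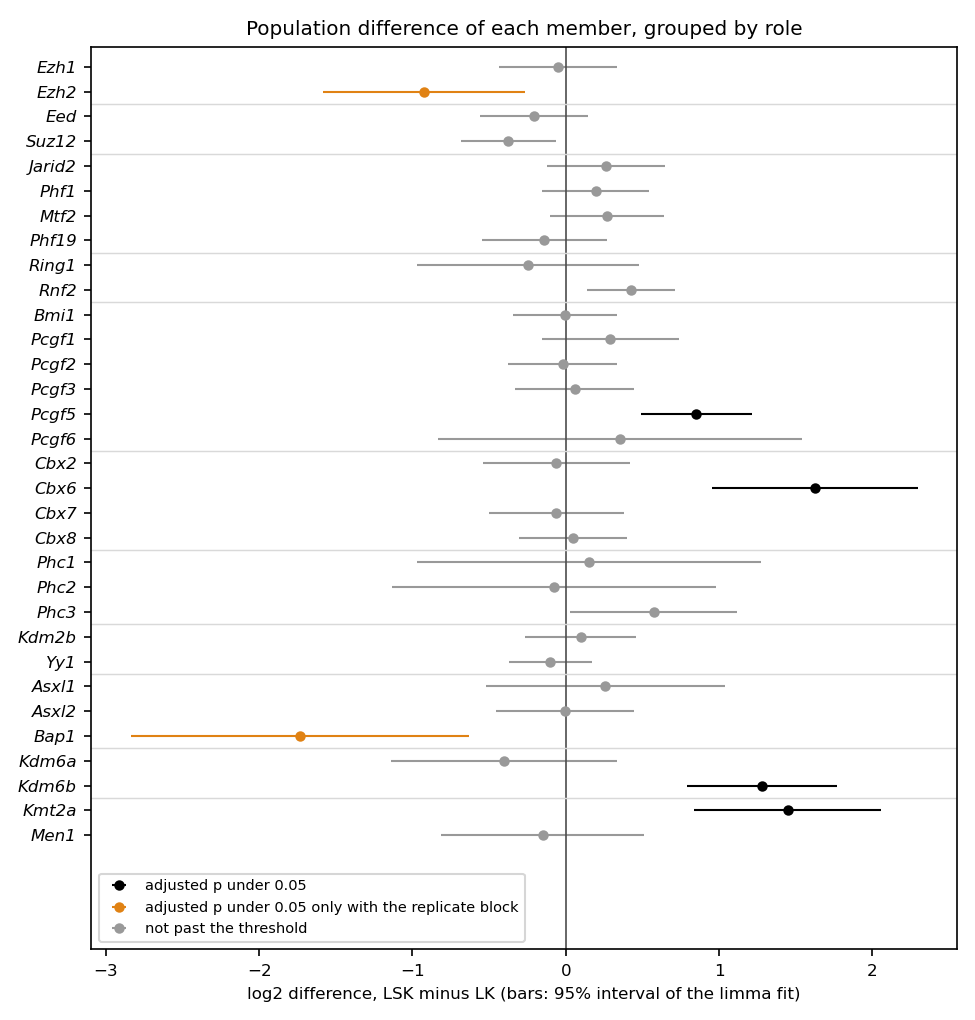
Log2 difference, LSK minus LK, of each member with the 95% interval of the limma fit. Black points (4) have an adjusted p under 0.05, orange points (Ezh2 and Bap1) only with the replicate number as a block, and grey points in neither fit.

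The sequence at the start of these genes is shown for 3 of the 4 members that were higher in LSK and for Ezh2, because Kmt2a, Kdm2b and Cxxc1 are known to bind CG dinucleotides through their zinc fingers, and Polycomb complexes gather at CG-rich promoters. RefSeq windows on GRCm38.p6, from 250 bases before to 50 after the most upstream listed start, were matched for 29 of the 32 members, with none for Kdm6b, Pcgf1 and Cbx2. The windows are printed 5′ to 3′ on the strand of the gene, with each CG in capitals (CG reads the same on both strands). They are Kmt2a (chr9:44881240-44881539, minus strand, 36 CG), Cbx6 (chr15:79834284-79834583, minus strand, 31 CG), Pcgf5 (chr19:36348079-36348378, plus strand, 34 CG, the first of 3 listed starts) and Ezh2 (chr6:47594981-47595280, minus strand, 31 CG).
Kmt2a: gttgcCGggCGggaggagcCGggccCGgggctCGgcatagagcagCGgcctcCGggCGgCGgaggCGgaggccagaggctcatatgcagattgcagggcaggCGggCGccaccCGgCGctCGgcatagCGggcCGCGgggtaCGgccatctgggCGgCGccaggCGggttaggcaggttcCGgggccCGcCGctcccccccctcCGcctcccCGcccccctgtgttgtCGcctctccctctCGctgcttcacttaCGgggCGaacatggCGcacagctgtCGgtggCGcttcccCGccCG
Cbx6: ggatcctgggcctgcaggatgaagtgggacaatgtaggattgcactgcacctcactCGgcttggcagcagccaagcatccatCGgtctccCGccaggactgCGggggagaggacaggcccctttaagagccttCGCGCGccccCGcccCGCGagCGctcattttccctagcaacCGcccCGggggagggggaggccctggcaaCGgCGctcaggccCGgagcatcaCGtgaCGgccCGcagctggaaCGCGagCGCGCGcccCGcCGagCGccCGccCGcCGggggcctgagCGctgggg
Pcgf5: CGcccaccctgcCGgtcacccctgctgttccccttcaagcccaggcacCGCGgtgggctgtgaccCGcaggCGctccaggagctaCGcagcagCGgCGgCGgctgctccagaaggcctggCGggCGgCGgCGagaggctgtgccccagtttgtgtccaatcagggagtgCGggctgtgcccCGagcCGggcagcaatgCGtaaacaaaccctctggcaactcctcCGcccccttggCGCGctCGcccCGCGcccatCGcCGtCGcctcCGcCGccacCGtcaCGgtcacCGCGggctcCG
Ezh2: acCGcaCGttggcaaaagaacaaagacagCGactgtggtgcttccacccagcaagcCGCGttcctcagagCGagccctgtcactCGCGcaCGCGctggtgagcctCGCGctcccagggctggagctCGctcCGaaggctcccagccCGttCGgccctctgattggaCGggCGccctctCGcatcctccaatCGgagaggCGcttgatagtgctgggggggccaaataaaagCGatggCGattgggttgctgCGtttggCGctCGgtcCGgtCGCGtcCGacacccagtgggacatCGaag
At least 1 CG was found in all 29 member windows and in 98.1% of the 14452 windows of genes measured on the array. The number per window was 9 to 50 in the members with a median of 24, beside a median of 17 and quartiles of 6 and 26 over those genes. The 3 windows of members higher in LSK (31 to 36) and that of Ezh2 (31) lay side by side on this count, and the array says nothing about which start was used.

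Kmt2a, the histone methyltransferase that keeps Hox genes active, was higher in LSK. Its log2 intensities were 9.26, 9.17 and 8.49 in LSK, against 7.86, 7.34 and 7.37 in LK. The populations did not overlap, and LSK replicate 3 was the LSK array nearest to LK. The log2 difference was 1.45 (SE 0.26), equal to 2.73-fold (limma adjusted p = 0.0254). Every same-numbered pair of arrays (3 of 3) had it above 0 (1.40, 1.82 and 1.12). Such a shared sign follows from the lack of overlap, here and in the other members without overlap. The second Kmt2a probe set gave 8.67, 8.30 and 7.68 in LSK, against 6.82, 5.70 and 6.66 in LK, a difference of 1.82 (adjusted p = 0.0529 over all probe sets of the array, where the first had 0.0369). The call of the gene was lost when LSK replicate 1 (adjusted p = 0.0907), LSK replicate 2 (0.0744), LK replicate 2 (0.0695) or LK replicate 3 (0.101) was left out, while its log2 difference stayed between 1.30 and 1.69.

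Men1, which encodes Menin, the subunit that links Kmt2a to chromatin, lay near the lower end of the range, at 3.45, 2.94 and 3.44 in LSK and 3.78, 2.87 and 3.64 in LK. The populations overlapped (log2 difference -0.15, SE 0.28, limma adjusted p = 0.807), and all 3 of its probe sets had a mean log2 under 4.

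Among the demethylases of histone H3, Kdm6b was higher in LSK. It had log2 intensities of 10.52, 9.91 and 10.49 in LSK, against 9.12, 8.82 and 9.14 in LK. No LSK array came within the LK range. The difference came to 1.28 on the log2 scale (SE 0.21), or 2.43-fold (limma adjusted p = 0.0184), and was positive in 3 of 3 pairs. This value rests on a single probe set, of a type (suffix _x) that may also bind other transcripts, and the other 2 had means under 4 and differences of 0.094 and -0.044. The call was lost when LSK replicate 1 (adjusted p = 0.0766), LK replicate 2 (0.0514) or LK replicate 3 (0.0694) was left out.

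Its X-linked paralog Kdm6a did not pass the test. The values were 7.44, 7.25 and 8.11 in LSK and 7.82, 8.53 and 7.65 in LK, with overlap (log2 difference -0.40, SE 0.31, limma adjusted p = 0.522). Of its 4 probe sets the other 3 had differences above 0, from 0.30 to 0.66.

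Cbx6, a chromodomain subunit of canonical PRC1, had the largest difference toward LSK among the members. It measured 10.04, 9.86 and 9.24 in LSK, against 8.54, 7.94 and 7.78 in LK, with a log2 difference of 1.63 (SE 0.28), or 3.09-fold (limma adjusted p = 0.0235). The populations were apart in 3 of 3 pairs (by 1.46 to 1.92), and LSK replicate 3 was again the LSK array closest to LK. The suffix of its probe set marks one shared by several transcripts, and the second probe set, with a mean of 3.76, had a difference of 0.071. The adjusted p was 0.0869 when LSK replicate 1 was left out, 0.0715 for LSK replicate 2, 0.0665 for LK replicate 2 and 0.0921 for LK replicate 3, and under the threshold for the other two arrays.

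Its relatives Cbx2, Cbx7 and Cbx8, which bind trimethylated histone H3 in other canonical PRC1 forms, lay between 2.67 and 3.71 on every array. Their log2 differences were -0.061, -0.060 and 0.049 (limma adjusted p from 0.889 to 0.9), and the populations overlapped in all 3.

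Pcgf5, which defines one of the variant forms of PRC1, was higher in LSK by 0.85 on the log2 scale (SE 0.15), or 1.80-fold (limma adjusted p = 0.0259). Its log2 intensities of 7.85, 8.20 and 8.10 in LSK stood above those of 7.06, 7.20 and 7.35 in LK, in 3 of 3 pairs. Its other 2 probe sets, with means of 6.46 and 5.99, gave differences of -0.036 and 0.32. In each of the 6 fits without 1 array the adjusted p lay just over the threshold, between 0.058 and 0.074.

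No other Pcgf gene passed the test. Bmi1, the Pcgf subunit of canonical PRC1 best known from stem cells, had 8.58, 8.63 and 8.73 in LSK and 8.85, 8.51 and 8.60 in LK. The populations overlapped, and the log2 difference was -0.0042 (SE 0.14, limma adjusted p = 0.99, 95% interval -0.34 to 0.33). The sign changed under both other scalings (0.0036 with repeated quantile normalisation, 0.099 with cyclic loess), and its second probe set gave 0.26. Pcgf3, of another variant form, had a difference of 0.057 (SE 0.16), and Pcgf6 of 0.35 (SE 0.50), where LSK replicate 2 stood at 5.48 and the other 5 arrays between 3.56 and 4.29. Pcgf1 (0.29) and Pcgf2 (-0.019) were under 4.

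The catalytic subunits of PRC1 are Ring1 and Rnf2, which carry the ubiquitin ligase activity. Rnf2 measured 8.63, 8.68 and 8.51 in LSK, against 8.22, 8.19 and 8.12 in LK. The populations did not overlap, the difference was 0.43 (SE 0.12), and it missed the threshold with a limma adjusted p of 0.0881 (0.0869 with the block). A second bright probe set gave 0.43 as well. Ring1 had 4.06, 3.68 and 4.29 in LSK and 4.75, 3.66 and 4.37 in LK, with overlap (difference -0.25, SE 0.30).

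The 3 Phc genes encode the polyhomeotic subunits, through which canonical PRC1 polymerises. Phc3 had 8.28, 8.40 and 8.23 in LSK, against 7.51, 8.23 and 7.44 in LK, a log2 difference of 0.57 (SE 0.23, limma adjusted p = 0.202). LK replicate 2 reached the LSK range, and without it Phc3 was past the threshold (difference 0.83, adjusted p = 0.0393). Phc1 and Phc2 spread widely within LSK, from 4.06 to 5.97 and from 4.32 to 6.14, and had differences of 0.15 (SE 0.47) and -0.077 (SE 0.44).

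Kdm2b brings variant PRC1 to unmethylated CG-rich DNA, and Yy1 is a DNA-binding protein related to a Polycomb recruiter of the fly. Both were bright and nearly even by their brightest probe set. Kdm2b measured 10.83 ± 0.13 in LSK and 10.73 ± 0.18 in LK, and Yy1 10.83 ± 0.02 in LSK and 10.94 ± 0.02 in LK (SD, n = 3 each). The 3 LSK values of Yy1 lay below those of LK without overlap, with a log2 difference of -0.10 (SE 0.11, limma adjusted p = 0.669). The second Kdm2b probe set, with a mean of 9.46, gave -0.27 without overlap (limma adjusted p = 0.337 over all probe sets). Further Yy1 probe sets with means of 7.41 and 6.74 gave -0.48 and -0.0026.

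In PRC2, Ezh2 and Suz12 lay lower in LSK, and neither passed the test without the block. Ezh2, the catalytic subunit known to be abundant in dividing cells, is measured by a single probe set and had log2 intensities of 8.04, 7.34 and 8.41 in LSK, against 9.05, 8.75 and 8.77 in LK. The populations did not overlap. The log2 difference was -0.92 (SE 0.28), below 0 in 3 of 3 pairs (from -1.41 to -0.36), with a limma adjusted p of 0.103, which became 0.0489 when replicate number was a block. Beside it, the mean log2 intensity over the 23 cell cycle genes was 6.97 to 7.52 on the LSK arrays, against 8.06 to 8.37 on the LK arrays; the part of this difference in the Ezh2 result was not tested. The paralog Ezh1, the catalytic subunit known from resting cells, had a mean under 4 in all 4 of its probe sets, with a difference of -0.050 (SE 0.16).

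Suz12, a core subunit, measured 10.20, 10.06 and 10.10 in LSK, against 10.61, 10.52 and 10.35 in LK. The populations did not overlap, with a log2 difference of -0.37 (SE 0.13, limma adjusted p = 0.149, and 0.131 with the block). Its 5 probe sets with a mean of at least 4 did not have one sign, and ran from -0.62 to 0.72. Eed, the core subunit that reads the methyl mark, had a difference of -0.21 (SE 0.15) with overlap.

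The accessory PRC2 genes Jarid2, Mtf2, Phf1 and Phf19, whose products direct PRC2 to its sites, were not past the threshold. Mtf2 had 9.60, 9.79 and 9.75 in LSK, against 9.20, 9.63 and 9.49 in LK. The difference of 0.27 (SE 0.16) was positive in 3 of 3 pairs although the ranges overlapped. Its 5 probe sets with a mean of at least 4 ran from -0.27 to 1.49. The highest, with a mean of 4.98, did not overlap (limma adjusted p = 0.0839 over all probe sets). Jarid2 had a difference of 0.26 (SE 0.16) by its brightest probe set and of -0.66 by the next. Phf1 (0.19) and Phf19 (-0.14) were under 4.

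Bap1, the deubiquitinase that removes the PRC1 mark, had the largest difference toward LK. It measured 5.74, 5.09 and 7.05 in LSK, against 7.78, 7.74 and 7.56 in LK. All LSK arrays were below all LK arrays, but LSK replicate 3 was far nearer to LK than the other two. The log2 difference was -1.74 (SE 0.46), with a limma adjusted p of 0.0764, and of 0.0451 in the blocked fit. The second probe set differed by -0.57. Without LSK replicate 3 the difference was -2.28 and passed (adjusted p = 0.0108).

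The partners of Bap1 gave no call. Asxl1, often mutated in human myeloid disease, had a difference of 0.26 (SE 0.33, limma adjusted p = 0.71) by its brightest probe set, with 7.23, 7.48 and 6.66 in LSK and 7.04, 7.30 and 6.26 in LK. Its second probe set gave 5.32, 5.26 and 7.004 in LSK, against 7.31, 7.56 and 7.41 in LK, a difference of -1.56. As for Bap1, LSK replicate 3 stood nearest to LK in that probe set. Asxl2 was even (8.16, 8.65 and 8.57 in LSK, 8.38, 8.71 and 8.30 in LK, log2 difference -0.0066, SE 0.19).

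**Figure D3:**
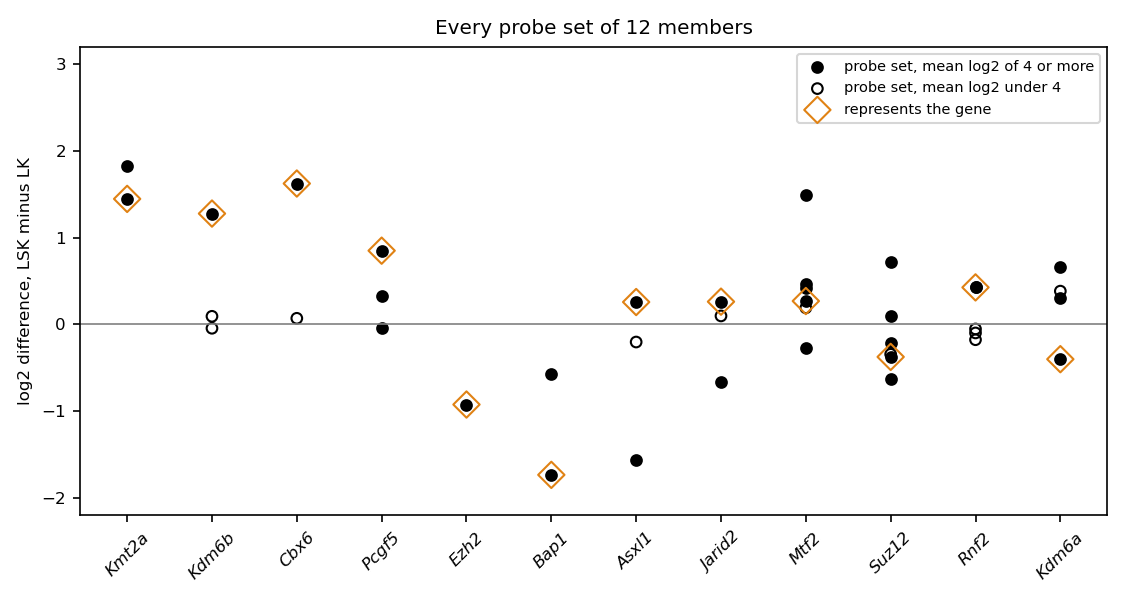
Log2 difference, LSK minus LK, of every probe set of 12 members, filled where the mean log2 is at least 4 and with an orange diamond on the one that represents the gene. The 2 Kmt2a probe sets lie together at 1.45 and 1.82. Filled probe sets of Pcgf5, Asxl1, Jarid2, Mtf2, Suz12 and Kdm6a lie on both sides of 0. Those of Kdm6b and Rnf2 do so only when probe sets under 4 are included.

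Probe sets of one gene often differed in sign. Of the 13 members with at least 2 probe sets of a mean log2 of 4 or more, 9 had such probe sets on both sides of 0. The 9 include genes with a difference close to 0, such as Bmi1 (-0.0042 and 0.26), and the share over all genes was not counted. Over all 87 probe sets of the members 4 were past the threshold when adjusted over all probe sets of the array, 1 for each of the 4 called genes. The share past it over all probe sets of the array was not counted, so this number cannot be set against it. With each gene as the mean of its probe sets only Kmt2a passed (difference 1.64, limma adjusted p = 0.0277), where 3.25% of all genes were higher, a share close to 1 of 32, and the differences of Kdm6b, Cbx6 and Pcgf5 were 0.44, 0.85 and 0.38 (adjusted p of 0.101, 0.0717 and 0.289).

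Paralogs were compared through their differences between the populations, since the intensities of different probe sets cannot be set against each other. The 17 pairs were taken within families, without every possible pair, and with earlier results of these data known. In each, the log2 value of one gene minus that of the other was taken on each array. This value was compared between LSK and LK with a two-sided exact permutation test, in which 3 arrays against 3 cannot give a p under 0.1. Exactly 4 pairs reached that smallest p, with an adjusted p of 0.425 over the 17. At that p the populations do not overlap, so the same sign in 3 of 3 pairs of arrays follows from it. The contrast was -1.68 (SE 0.42) for Kdm6a minus Kdm6b, 1.69 (SE 0.48) for Cbx6 minus Cbx7, 0.87 (SE 0.20) for Ezh1 minus Ezh2 and -0.79 (SE 0.25) for Pcgf3 minus Pcgf5. With each gene as the mean of its probe sets the contrast was -0.21 for Kdm6a minus Kdm6b (exact p = 0.6), 0.69 for Cbx6 minus Cbx7 (exact p = 0.1), 0.90 for Ezh1 minus Ezh2 (exact p = 0.1) and -0.34 for Pcgf3 minus Pcgf5 (exact p = 0.3). Cbx7 and Ezh1 had means under 4, where a difference is compressed. Ring1 minus Rnf2 gave -0.67 (SE 0.39, exact p = 0.2). The other contrasts were between 0.0003 and 0.65 in size, with exact p from 0.4 to 1; that of Bmi1 and Pcgf2 was 0.015 (SE 0.12).

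**Figure D4:**
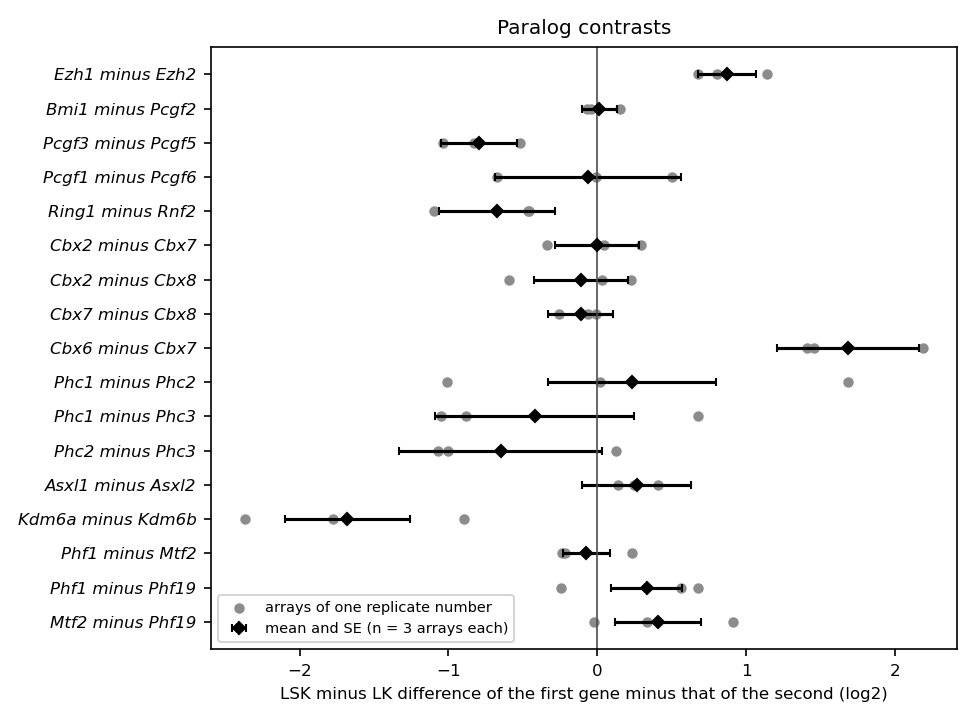
Difference between 2 paralogs in their LSK minus LK log2 difference, as the mean (diamond) with its SE over 3 arrays of each population and as the value for each replicate number (grey points). Of the 17 contrasts 7 lie on one side of 0 in all 3. Among them are the 4 at the smallest exact p, Ezh1 minus Ezh2, Pcgf3 minus Pcgf5, Cbx6 minus Cbx7 and Kdm6a minus Kdm6b.

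The 3' to 5' difference moved with several of these genes. In Kmt2a, Cbx6, Ezh2 and Bap1 the LSK array nearest to LK was replicate 3, whose 3' to 5' value of 3.30 lay among those of LK, whereas Kdm6b (10.49) and Pcgf5 (8.10) on that array lay beside the other LSK arrays. With the measure as a covariate in limma, none of the 32 members was past the threshold (0 higher and 0 lower, with 4 and 0 at an unadjusted p under 0.05, where 5.36% of all genes were higher and 4.14% lower), and 25 of all genes were. In that fit the log2 difference was 0.83 for Kmt2a, 1.03 for Cbx6, -0.54 for Ezh2 and -0.66 for Bap1. It was 1.33 for Kdm6b and 0.92 for Pcgf5, and the limma adjusted p ran from 0.291 to 0.808. The measure itself differed between the populations, and of the LSK arrays only replicate 3 lay in the LK range. This fit therefore cannot tell the measure and the population apart. LSK replicate 3 also had the highest mean log2 intensity over the 9 granulocyte-monocyte markers within LSK (9.37, beside 7.93 and 8.38). In LK that mean was 9.73 to 10.75, and the part of this in the results was not tested.

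**Figure D5:**
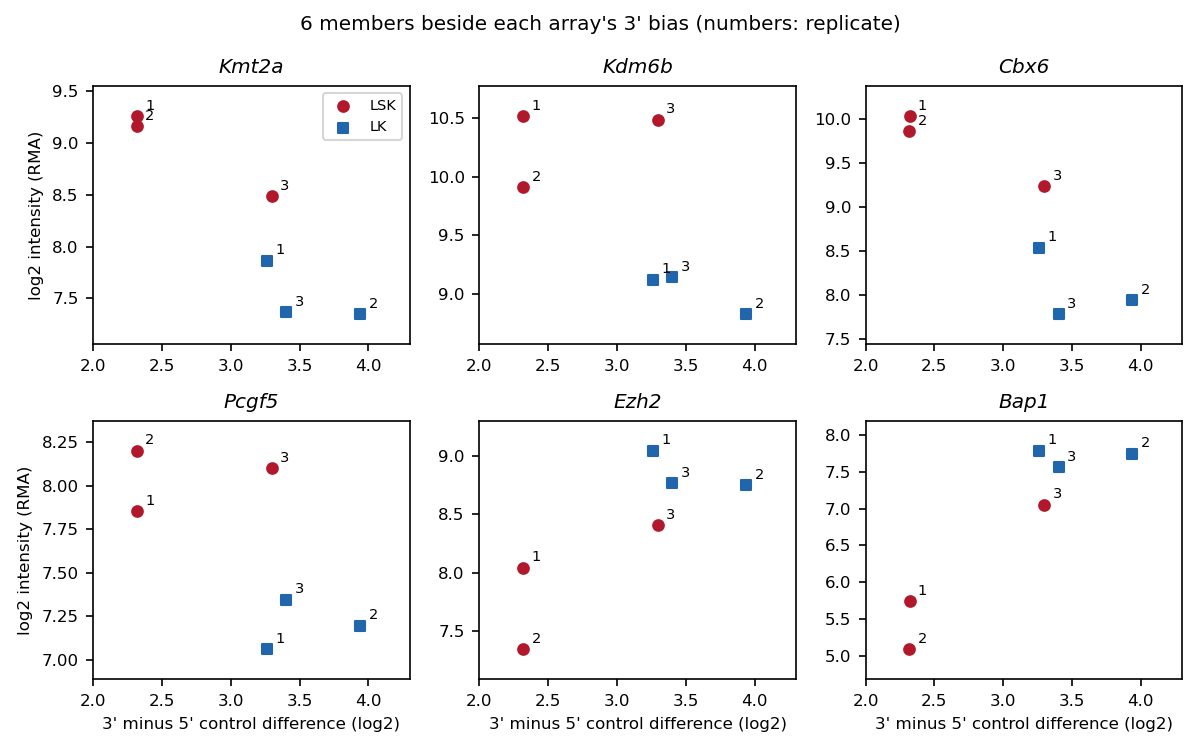
Log2 intensity of 6 members against the 3' minus 5' control difference of each array, with LSK as red circles, LK as blue squares and the replicate number beside each point. LSK replicate 3, at 3.30, lies nearest to LK for Kmt2a, Cbx6, Ezh2 and Bap1 and with the other LSK arrays for Kdm6b and Pcgf5.

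Other genes of the same complexes were counted beside the shares over all genes, which were 3.84% higher and 2.89% lower, 7.02% and 7.36% with the block, and 10.5% and 11.9% at an unadjusted p under 0.05. Of 28 measured further Polycomb genes 1 was higher and 0 lower in LSK in limma (3 and 0 with the block; 5 and 3 at an unadjusted p under 0.05), with a median log2 difference of 0.016; the single call is close to the share over all genes. It was Mbtd1, which encodes a protein with malignant brain tumour repeats (8.26, 8.33 and 8.07 in LSK, against 7.52, 7.09 and 7.44 in LK; difference 0.87, SE 0.16, adjusted p = 0.0299). Scmh1 (0.99) and Bcor (0.95), a subunit of the Pcgf1 form of PRC1, passed only with the block (adjusted p of 0.0363 and 0.0128), and were named after their values were seen. The count of higher genes was 2 without LSK replicate 3 and 0 when replicate 1 or 2 of LSK or replicate 2 or 3 of LK was left out.

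Of 26 measured further genes of the Kmt2 complexes and of Kmt2a fusion partners 1 was higher and 0 lower (3 and 1 with the block; 4 and 3 at an unadjusted p under 0.05), with a median of 0.060, and the single call is again close to that share. Aff4, a scaffold of the super elongation complex, had 7.41, 7.43 and 7.59 in LSK, against 6.67, 6.95 and 6.56 in LK (difference 0.75, SE 0.15, limma adjusted p = 0.0363). With the block Kmt2c (0.70) and Mllt6 (1.09) were higher too, and Cxxc1, the CG-binding subunit of the Setd1 complexes, was lower (-1.75, adjusted p = 0.0298), again with LSK replicate 3 nearest to LK (4.13, 3.11 and 5.08 in LSK, against 6.04, 5.69 and 5.83 in LK); these genes too were named after their values were seen. The count of higher genes was 2 without LK replicate 1 and 0 when any LSK array or LK replicate 3 was left out.

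Of 20 measured genes known as targets of Kmt2a or of Polycomb repression 7 were higher and 0 lower in LSK (8 and 0 with the block, 8 and 0 at an unadjusted p under 0.05), also 7 in each fit without 1 array and 2 with the 3' to 5' covariate. The largest differences were those of Mecom (4.87), Hoxa10 (3.74), Meis1 (3.55), Eya1 (2.26), Hoxa9 (2.23) and Hoxb3 (1.88), with limma adjusted p from 0.000685 to 0.00676. The other 13 genes were not past the threshold, and 10 of the 20 had a mean log2 under 4. Among these, and named for their low level, Gata4, Gata6, Pax6, Sox17 and Hic1 had means from 2.73 to 2.97. The list pools both kinds of target, so its count does not speak for either kind alone. Cdkn2a, the cell cycle inhibitor gene that Bmi1 is known to repress, was at 2.73 ± 0.03 in LSK and 2.68 ± 0.13 in LK (SD, n = 3 each), the lower end of the range, and was named for that role. Mecom, Meis1 and Hoxa9 also stand on the stem cell marker list. The whole target list was chosen with earlier results of these data known, and a link to Kmt2a or Polycomb was not tested. None of its values is therefore independent evidence on Kmt2a or Polycomb.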

How the data were processed

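RNA of 3 LSK and 3 LK samples was measured on Affymetrix mouse expression arrays. The authors deposited 1 linear intensity for each probe set and array, made with RMA in the affy package and R 2.11.0, per the submitters' processing notes; the order of the steps is not given in the sources used here. Medians of the deposited values per array were 2.98 to 3.09 after log2. Of 45101 probe sets, 34945 carried exactly 1 gene symbol, 932 several, and 9160 were not listed. For 34741 of those with 1 symbol, the symbol was taken by gene ID from the RefSeq table of GRCm38.p6, whether or not it changed. Each of 18193 genes took the values of its brightest probe set (mean log2 over the 6 arrays).

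LSK minus LK was tested with limma 3.58.1 (R 4.3.3; lmFit and eBayes, tested on simulated data), adjusted by Benjamini-Hochberg over all genes, with a threshold of 0.05. Deviations from the population mean correlated between arrays of the same number (0.417, 0.433 and 0.273), and at most at 0.039 otherwise. Deviations within a population cancel out, so the low values between unlike numbers are not separate evidence. The numbers were taken as pairs, from the data and not from the labels. The members, gene lists and paralog pairs were chosen with earlier results of these data known. All members are named, and of each other list the genes past the threshold, at most the 6 with the largest difference; exceptions are stated. The number of arrays limits the precision.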

Additional observations from a re-analysis of the deposited data

How the results depend on the processing

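The 4 calls toward LSK (Kmt2a, Kdm6b, Cbx6, Pcgf5) depended on single arrays. They numbered 0 when LSK array 1 or LK array 3 was left out, 1 for LSK array 2 or LK array 2, and 3 for LSK array 3 or LK array 1. Calls toward LSK over all 18193 genes fell in these fits too, from 699 to 243 and 230 without LSK array 1 and LK array 3. They were 475 and 455 without LSK array 2 and LK array 2, and 584 and 489 without LSK array 3 and LK array 1. Of the members, 1 was called without both arrays numbered 2 (371 over all genes). The mean of all probe sets gave 1 (591 over all genes) and the 3' to 5' covariate 0 (25 over all genes). The covariate leaves fewer residual degrees of freedom and itself differs between the populations. Calls toward LK were 0 to 1 without 1 array, 2 with the replicate number as a block, 1 with the filter on a mean log2 of at least 4, and 1 with trend and robust variances. Unless stated, the cause of a change was not tested. Over all genes 1225 were called, 2617 with the block and 25 with the covariate; the background correction could not be varied.

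For the other lists, calls of further Kmt2 genes toward LSK numbered 0 to 2 without 1 array, 3 with the block, 2 each with repeated quantile normalisation, cyclic loess and the filter, and 0 each with trend and robust variances, with the covariate and without both arrays numbered 2. Those toward LK numbered 0 to 1 without 1 array, and 1 each with the block, quantile, loess, the filter and trend. Further Polycomb genes toward LSK numbered 0 to 2 without 1 array, 3 with the block, and 0 with the covariate or the mean of probe sets. Target genes toward LSK numbered 2 with the covariate. Cell cycle genes toward LK numbered 1 to 6 without 1 array (1 for LSK array 1, 2 for LSK array 2, LK array 1 or LK array 3), 15 with the block, 12 with quantile, 11 with the filter, 11 with trend and 0 with the covariate.

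Signs turned only among differences that did not pass the test. With repeated quantile normalisation Bmi1 gave 0.0036 and Cbx8 -0.019; with cyclic loess Asxl2 gave 0.0998, Bmi1 0.0985 and Phc2 0.0346. With the mean of all probe sets the values were Asxl1 -0.50, Bmi1 0.13, Cbx7 0.16, Jarid2 -0.10, Kdm2b -0.0885, Kdm6a 0.24, Men1 0.0465, Pcgf2 0.10, Pcgf6 -0.12 and Phc2 0.19. With the covariate they were Asxl2 0.24, Cbx7 0.17, Ezh1 0.19, Jarid2 -0.0096, Kdm2b -0.14, Kdm6a 0.40, Pcgf6 -0.17 and Phc2 0.023. Without both arrays numbered 2 they were Asxl2 0.024, Cbx7 0.0464, Ezh1 0.0564, Kdm6a 0.0389, Pcgf6 -0.0646 and Phc2 0.34. In the fits without 1 array the differences that changed sign ran from -0.0459 to 0.49 for Asxl1, -0.10 to 0.14 for Asxl2, -0.077 to 0.0949 for Bmi1, -0.17 to 0.14 for Cbx2, -0.20 to 0.0964 for Cbx7, -0.0554 to 0.15 for Cbx8, -0.18 to 0.0571 for Ezh1, -0.43 to 0.0225 for Men1, -0.14 to 0.0823 for Pcgf2, -0.0184 to 0.17 for Pcgf3, -0.24 to 0.72 for Pcgf6, -0.31 to 0.65 for Phc1, -0.49 to 0.42 for Phc2 and -0.27 to 0.0037 for Phf19.

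Among the paralog contrasts, the mean of all probe sets turned Asxl1 minus Asxl2 (-0.49), Cbx7 minus Cbx8 (0.10), Pcgf1 minus Pcgf6 (0.41) and Phc1 minus Phc2 (-0.0359). Leaving out both arrays numbered 2 turned Bmi1 minus Pcgf2 (-0.0553) and Pcgf1 minus Pcgf6 (0.25). Without 1 array the ranges that crossed 0 were -0.0725 to 0.11 for Bmi1 minus Pcgf2, -0.17 to 0.23 for Cbx2 minus Cbx7, -0.32 to 0.19 for Cbx2 minus Cbx8, -0.26 to 0.022 for Cbx7 minus Cbx8, -0.39 to 0.50 for Pcgf1 minus Pcgf6, -0.14 to 0.61 for Phc1 minus Phc2, -0.92 to 0.12 for Phc1 minus Phc3 and -0.20 to 0.0467 for Phf1 minus Mtf2. With signs flipped within pairs the smallest p possible is 0.25, which 7 of 17 contrasts had. The block changed the call of Ezh2 and Bap1 and of no other member.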
